A study of Mus musculus with 22 samples.

Results

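Pcdh15, Kcnq3 and Adam12 are 3 mouse genes that were followed through every cell type of the hypothalamus of obese, diabetic mice 1 and 5 days after a single dose of fibroblast growth factor 1 (FGF1) into the brain ventricles. They are 3 of the 20668 genes in the table of nuclei and 3 of the 16304 genes in the table of whole cells. They were chosen by their measured difference between FGF1 and vehicle mice in Agrp neurons, GABA15 and other neurons and oligodendrocyte precursor cells (OPC) in these same mice, so in those cell types the difference between FGF1 and vehicle is given as a description, with no test. In all other cell types that difference was tested. The order of levels between cell types was tested in all. It is not independent of the choice, because the levels of vehicle mice enter the difference by which the genes were chosen.

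All mice were male ob/ob animals, which lack leptin, were 11 weeks old, and received either 3 µg FGF1 or its PBS vehicle intracerebroventricularly. Vehicle mice were pair-fed to the intake of the FGF1 mice. Nuclei were profiled on Day 1, 24 h after the injection, in 3 FGF1 and 3 vehicle mice, and on Day 5 in 2 FGF1 and 2 vehicle mice. Whole cells, from which the authors removed neurons, were profiled on Day 5 in 6 FGF1 and 6 vehicle mice, with 1 mouse per library throughout. As a model, these mice carry the leptin deficiency in both arms, and no lean group was compared.

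Each nuclear library held 591 to 5768 barcodes and 2721087 to 16345981 unique molecular identifiers (UMIs, 1 per captured transcript), and its median nucleus 2029 to 3986. The whole-cell libraries held 1967 to 7926 barcodes and 2652897 to 11866269 UMIs. Of 24645 distinct nuclear barcodes, 318 occurred in more than 1 library, as did 1791 of 53065 whole-cell barcodes. UMIs were summed per mouse and cell type, and levels are given as counts per 1000000 (CPM) of the UMIs of that cell type in that mouse, for every type with at least 10 nuclei or cells in the mouse. A fold change is the edgeR estimate on those sums, on the log2 scale with its standard error (SE), and always compares FGF1 with vehicle.

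As background, Pcdh15 encodes protocadherin 15, an adhesion protein best known from the tip links of inner ear hair cells, where it pairs with cadherin 23 (Cdh23), and its transcript is also a familiar marker of OPC in the brain. Kcnq3 encodes a potassium channel subunit that contributes to the channels of the M-current, which restrains repetitive firing of neurons. Adam12 encodes a membrane metalloprotease of the ADAM family that sheds growth factor precursors such as Hbegf. It is held in check by some, not all, of the tissue inhibitors of metalloproteases (Timp). Agrp neurons are hypothalamic neurons that drive feeding and release agouti-related peptide and neuropeptide Y.

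On GRCm38, the build to which the authors aligned, Pcdh15 lies on chr10:73099342-74649737 on the plus strand. It spans 1550 kb with up to 37 exons in a transcript, and is overlapped on the opposite strand by the lincRNA Gm15398. Kcnq3 lies on chr15:65986387-66286642 on the minus strand, spans 300.3 kb and is overlapped by the antisense gene Gm27153. Adam12 lies on chr7:133883199-134232146 on the minus strand and spans 348.9 kb. The intervals are gene bodies, and for nuclei the authors counted reads in introns as well as exons. Whether the counting used strand is not given in the sources used here, so reads of Pcdh15 and Gm15398 cannot be told apart where they overlap.

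Of the 3 genes, 1 has an entry in the table of RefSeq promoters (GRCm38.p6). The 250 bases before the Pcdh15 start in that table, chr10:73821617-73821866 on the plus strand, are shown as the only promoter sequence at hand for the 3 genes. They lie inside the gene body given above, so this start is an internal one, downstream of the gene's first annotated base, and which start was used in these cells was not measured. The capitals mark a TATA box motif.

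Pcdh15: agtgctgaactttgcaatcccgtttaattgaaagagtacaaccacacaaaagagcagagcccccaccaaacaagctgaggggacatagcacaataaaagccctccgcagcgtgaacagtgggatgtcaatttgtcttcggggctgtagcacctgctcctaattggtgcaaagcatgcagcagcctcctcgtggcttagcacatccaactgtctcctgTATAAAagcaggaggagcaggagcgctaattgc

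The motif TATAAA began 33 bases before the start, on the strand of the gene, and occurred on either strand in 12.4% of 32851 mouse promoters of the same length. A CCAAT motif was found once, on the reverse strand 90 bases before the start, and 33.8% of promoters held it. The motifs TGANTCA (AP-1), TGACGTCA (CRE) and CCGGAA (ETS) were not among these letters on either strand, and occurred in 6.75%, 1.55% and 12.0% of promoters.

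All 3 genes were higher in the Agrp neurons of FGF1 mice on Day 1, by 3.87-fold for Pcdh15, 4.46-fold for Kcnq3 and 11.9-fold for Adam12. On Day 5 Kcnq3 and Adam12 overlapped between the arms, and Pcdh15 was higher in both FGF1 mice, as were 20.4% of genes. The label n13.Agrp/Gm8773 held 341 nuclei, 145 of them from FGF1 and 82 from vehicle mice on Day 1. All 5 markers of Agrp neurons were detected in it, and they summed to 21514 to 54517 CPM in FGF1 and 12880 to 33410 CPM in vehicle mice.

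Pcdh15 in Agrp neurons stood at 2667, 3103 and 3154 CPM in FGF1 mice 1, 2 and 3 on Day 1, and at 841, 839 and 616 CPM in vehicle mice 1, 2 and 3. The lowest FGF1 mouse was thus well above the highest vehicle mouse, and the means were 2975 ± 268 and 765 ± 129 CPM (SD, n = 3 each), resting on 940 and 222 UMIs. The log2 fold change was 1.95 ± 0.28 (SE). Each batch in the deposited metadata held 1 FGF1 and 1 vehicle mouse, and within the 3 batches the ratio of the levels was 4.33, 3.69 and 3.76. The overlapping lincRNA Gm15398 stood at 305, 352 and 356 CPM in FGF1 and at 131, 132 and 51.3 CPM in vehicle mice, again without overlap.

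Kcnq3 in Agrp neurons stood at 558, 817 and 763 CPM in FGF1 mice and at 155, 150 and 180 CPM in vehicle mice on Day 1. The vehicle mice lay close together and every FGF1 mouse was well above them. The means were 713 ± 137 and 162 ± 15.8 CPM (SD, n = 3 each), from 217 and 43 UMIs. The log2 fold change was 2.16 ± 0.30, and the ratio within the batches was 3.11, 5.27 and 5.08. The antisense gene Gm27153 had 0 to 2 UMIs per mouse in these nuclei.

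Adam12 in Agrp neurons was at 145, 248 and 356 CPM in FGF1 mice and at 32.6, 0 and 25.7 CPM in vehicle mice on Day 1. It was close to the detection limit without FGF1, with 5 UMIs in 82 nuclei against 66 UMIs in 145 nuclei, and the arms did not overlap. The means were 250 ± 106 and 19.4 ± 17.2 CPM (SD, n = 3 each), and the log2 fold change was 3.58 ± 0.67.

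**Figure D1:**
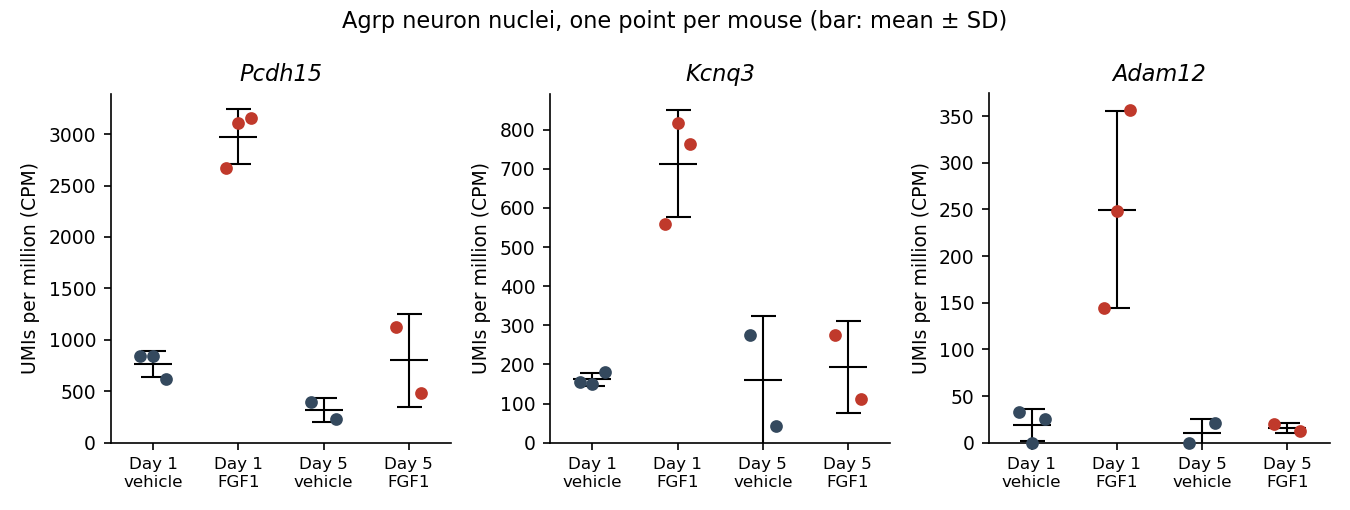
Level of Pcdh15, Kcnq3 and Adam12 in Agrp neurons of each mouse, in CPM on the vertical axis, by treatment and day; each point is 1 mouse (red FGF1, dark vehicle) and the bars give the mean and SD of its group. On Day 1 the 3 FGF1 mice lie above the 3 vehicle mice for each gene (Pcdh15 from 2667 against at most 841 CPM); on Day 5 the arms overlap for Kcnq3 and Adam12.

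Ranked by log2 fold change among the 2350 genes tested in Agrp neurons on Day 1, Adam12 was number 2, Kcnq3 number 8 and Pcdh15 number 15. In this contrast 7 genes were called higher with FGF1 at an edgeR false discovery rate (FDR) under 0.05 or 0.298% of those tested. All 3 genes were among the 7, and since they were chosen from this contrast nothing is read from that count. Every FGF1 mouse lay above every vehicle mouse in 171 of the 2350 genes, or 7.28%.

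More nuclei held a transcript of each gene. After each nucleus was thinned to 1000 UMIs, which all nuclei reached, 76.3 ± 6.6% of Agrp nuclei of FGF1 mice and 40.6 ± 4.0% of those of vehicle mice had a Pcdh15 UMI (SD, n = 3 each). The thinned shares were 44.6 ± 8.0% and 14.7 ± 8.8% for Kcnq3, and 20.6 ± 4.7% and 2.30 ± 3.98% for Adam12. None of the 3 shares overlapped between the arms. How many of all genes separate by share was not counted, and since the genes were chosen from this contrast nothing is read from that. Without thinning the shares were 90.7 and 71.7%, 65.7 and 32.7%, and 31.5 and 6.82%, although the FGF1 nuclei were shallower, the median depth of an Agrp nucleus being 1761 to 2593 UMIs under FGF1 and 2585 to 3775 UMIs under vehicle.

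Among nuclei with at least 1 UMI of the gene, the mean number was 6.37 to 9.68 Pcdh15 UMIs in FGF1 and 2.18 to 4.68 in vehicle mice. For Kcnq3 it was 2.16 to 3.76 and 1.21 to 2.33 UMIs, so the arms overlapped for this gene. For Adam12 it was 1.22 to 2.80 UMIs in FGF1 mice, and 1 in each vehicle mouse that had any.

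As a background level from a type of nonneuronal cell in the same libraries, 21.3 and 19.7% of ependymal nuclei of FGF1 and vehicle mice had a Pcdh15 UMI and 4.75 and 9.26% a Kcnq3 UMI after thinning, at unthinned medians of 2530 to 4873 UMIs. In FGF1 mice the shares of Agrp nuclei with Pcdh15 and Kcnq3 lay above those of ependymal nuclei without overlap. In vehicle mice they overlapped, at 36.8 to 44.8% of Agrp and 7.69 to 38.9% of ependymal nuclei for Pcdh15 and at 6.67 to 24.1% and 0 to 27.8% for Kcnq3. Microglia and oligodendrocytes, whose labels also counted RNA of neurons, had higher Pcdh15 shares than ependymal nuclei, at 60.3 to 87.0% and 55.6 to 75% in FGF1 mice, which overlapped with the 68.8 to 81.2% of Agrp nuclei, and at 65.4 and 63.2% on average in vehicle mice, above the 40.6% of Agrp nuclei. The Kcnq3 share of vehicle mice was also higher in other nonneuronal nuclei than the 14.7% of Agrp nuclei, at 24.1% in tanycytes, 22.7% in astrocytes, 25.7% in microglia and 29.5% in oligodendrocytes. At this depth, the Pcdh15 and Kcnq3 shares of Agrp nuclei of vehicle mice could thus not be told from those of ependymal nuclei. The other nonneuronal types give no clean background. Microglia and oligodendrocyte labels held RNA of neurons, and Kcnq3 was also counted in oligodendrocyte-like and astrocyte-like whole cells. For Pcdh15, the shares of vehicle mice were 2.86 to 30% in tanycytes and 17.5 to 33.3% in astrocytes. Both lay below the 36.8 to 44.8% of Agrp nuclei without overlap. Neuronal markers were also counted in ependymal, tanycyte and astrocyte nuclei, at lower sums that are given below. For Adam12, 13.6% of ependymal nuclei of FGF1 mice and 0% of those of vehicle mice held it, and in FGF1 mice the shares of Agrp (15.6 to 25%) and ependymal nuclei (11.1 to 16.7%) overlapped.

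The nuclei in this label carried few markers of glia. The 8 OPC markers summed to 432 to 600 CPM in FGF1 and 336 to 667 CPM in vehicle mice, nearly all of it Ptprz1, with Cspg4 at 0 in all 6 mice. The 7 oligodendrocyte markers summed to 76.3 to 145 CPM in FGF1 and 300 to 416 CPM in vehicle mice, the 7 tanycyte markers to 114 to 357 and 79.5 to 269 CPM, and the 7 astrocyte markers to 25.4 to 186 and 25.7 to 139 CPM. The 5 markers of vascular leptomeningeal cells (VLMC) were at 0 in every mouse. The oligodendrocyte list was thus lower in FGF1 mice, and its part in the 3 genes' difference was not tested. It was also lower without overlap in other types, such as the neurons labelled unmap (81.0 to 102 and 151 to 183 CPM), so this was not particular to Agrp neurons. Agrp itself stood at 25695, 10157 and 9487 CPM in FGF1 and at 4155, 14097 and 12343 CPM in vehicle mice.

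On Day 5, Pcdh15 in Agrp neurons was at 1123 and 482 CPM in FGF1 mice 37 and 45, and at 397 and 234 CPM in vehicle mice 28 and 38. Both FGF1 mice were above both vehicle mice, as for 20.4% of the genes tested in this contrast, with a log2 fold change of 1.17 ± 0.39 and within-batch ratios of 2.83 and 2.06. Kcnq3 was at 276 and 111 CPM in FGF1 and at 276 and 42.6 CPM in vehicle mice, so the arms overlapped. Its log2 fold change was -0.17 ± 0.57, against the direction of the means (194 and 159 CPM), and the within-batch ratios were 1.00 and 2.61. Adam12 had 2 UMIs in 57 FGF1 nuclei and 1 UMI in 57 vehicle nuclei, too few to compare. In this contrast 1 of 1345 tested genes, 0.0743%, was called higher with FGF1. The days differed in mice and in number of nuclei, and the difference between days was not tested in Agrp neurons.

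The family of Kcnq3 was examined next, from lists of 66 genes in 4 groups. The lists were chosen with earlier results of these data known, so their counts are a description. Of 18 genes of the Kcnq family and the M-current, 8 could be tested in Agrp neurons on Day 1, 1 rose and 0 fell, where 0.298% of all genes tested were called higher. The one that rose was Kcnq5, which encodes another M-current subunit. It stood at 501, 807 and 1068 CPM in FGF1 and at 171, 212 and 77.0 CPM in vehicle mice, without overlap, a 4.58-fold difference (log2 fold change 2.20 ± 0.38, edgeR FDR 0.0410). This call was lost when any mouse other than FGF1 mouse 1 was left out, and in 8 of 13 alternatives in all, over which the log2 fold change lay between 1.76 and 2.45. Kcnq1, another member of the family, had a log2 fold change of -0.37. Ank3, which encodes ankyrin G, the anchor of these channels at the axon initial segment, had 0.46. Chrm3, a muscarinic receptor whose activation closes M-channels, had 1.06 ± 0.49 and did not pass the test (edgeR FDR 0.477, unadjusted p 0.0490). The median of the 8 genes was 0.06, against 0.01 over all 2350 genes.

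Of 15 partners of Pcdh15 in the tip link and the Usher complex, 1 was abundant enough to test in Agrp neurons. This was Cdh23, with a log2 fold change of -1.15 ± 0.85 (edgeR unadjusted p 0.206). Of 11 non-clustered protocadherins, 4 were tested and 0 passed the edgeR test, 0 of them at an unadjusted p under 0.05. They were Pcdh7 (log2 fold change 0.19), Pcdh9 (0.47), Pcdh11x (-0.29) and Pcdh17 (0.14), with a median of 0.17.

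Of 22 ADAM proteases with their inhibitors and substrates, 4 were tested in Agrp neurons and 0 passed, with 2 at an unadjusted p under 0.05 by edgeR. Those were Adam23, a family member without protease activity that acts in adhesion, at -0.94 ± 0.41 (edgeR FDR 0.438), and Nrg1, a growth factor released by shedding, at -0.74 ± 0.29 (edgeR FDR 0.381). Reck, an inhibitor of metalloproteases, had 0.79, and the median of the 4 was -0.36. Timp1, a secreted inhibitor of metalloproteases, was left out by the filter on low counts. It stood at 227, 103 and 76.3 CPM in FGF1 mice and at 0 in all 3 vehicle mice. DESeq2 called the same number of list genes over the 4 groups, which was 1.

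Outside these lists, the other genes called higher in Agrp neurons were Serpina3n, Socs2 and Wbscr17. Serpina3n, a secreted protease inhibitor known from reactive astrocytes, was at 450, 352 and 203 CPM in FGF1 and at 0, 8.83 and 51.3 CPM in vehicle mice (28.2-fold, log2 fold change 4.82 ± 0.74, edgeR FDR 0.0163). Socs2, an inhibitor of cytokine and growth hormone signalling, was at 212, 176 and 254 CPM in FGF1 and at 40.8, 17.7 and 0 CPM in vehicle mice (8.23-fold, log2 fold change 3.04 ± 0.55, edgeR FDR 0.0450). Wbscr17, a glycosyltransferase, was 4.52-fold higher (edgeR FDR 0.0450). Their calls were lost in 6 of 13 alternatives for Serpina3n, 9 of 11 for Socs2 and 8 of 13 for Wbscr17. Ncam2, a neural adhesion molecule, just missed the threshold (log2 fold change 1.54, edgeR FDR 0.0556). Among genes with lower values in FGF1 mice, Trpm3, an ion channel, had the smallest p (-1.72, edgeR FDR 0.0556), followed by Lrrc1 (-1.91, FDR 0.0628), Sema6a (-1.86, FDR 0.0816), Kcnip4 (-1.31, FDR 0.0885) and RP23-407N2.2 (-1.37, FDR 0.0969), and none of the 5 passed the edgeR test.

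Pcdh15, Kcnq3 and Adam12 are long genes, and intronic reads were counted in nuclei. Their gene bodies were at or above the 83.0 percentile of length among the genes tested in Agrp neurons. The 391 tested genes at least as long as Kcnq3 had a median log2 fold change of -0.01, and 4 of them, 1.02%, were called. Over all 2294 genes with a known length the median was 0.01 and 6 were called, 0.262%. The called genes in both counts include the 3 genes themselves, and the limit of length was that of the shortest of the 3. Wbscr17, which was also called, had no matched length and is in neither count. Nothing is read from these percentages.

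GABA15 neurons had the next highest estimate for Pcdh15 among neurons. On Day 1 the 5 Agrp-neuron markers summed to 13713 and 25835 CPM in their 2 FGF1 mice and to 10071 and 19745 CPM in their 2 vehicle mice. These sums overlapped with the 21514 to 54517 CPM in FGF1 and 12880 to 33410 CPM in vehicle mice under the label n13.Agrp/Gm8773. By this list the labels could not be told apart, so GABA15 is not read as a second cell type with the difference. Pcdh15 was at 2034 and 3049 CPM in FGF1 and at 891 and 816 CPM in vehicle mice, with a log2 fold change of 1.52 ± 0.40, and 0.84 after thinning. Kcnq3 was at 589 and 475 CPM in FGF1 and at 343 and 320 CPM in vehicle mice, with a log2 fold change of 0.66 ± 0.41. Adam12 was at 85.7 and 164 CPM in FGF1 and at 17.1 and 10.3 CPM in vehicle mice, from 17 and 2 UMIs. The ratio of the pooled levels was 8.90, with a 95% interval of 2.11 to 79.5 that covers counting error only. With 2 mice per arm, none of the 3 genes overlapped, as was the case for 17.2% of the 1687 genes tested in the direction of FGF1 above vehicle. On Day 5, with 1 mouse per arm, Pcdh15 was at 1176 CPM with FGF1 and 1327 CPM with vehicle, Kcnq3 at 272 and 240 CPM, and Adam12 at 36.8 and 0 CPM.

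In the other neuronal types the Day 1 differences of Pcdh15 were smaller than in Agrp and GABA15 neurons. The log2 fold change ran from 0.07 in Glu4 to 0.72 ± 0.32 in Glu5, and was 0.13 ± 0.24 in n29.Nr5a1/Adcyap1 neurons, 0.40 in n06.Oxt neurons and 0.47 in the neurons labelled unmap. Its sign was positive in all 9 of these types, and its arms did not overlap in n16.Rgs16/Vip (0.48) and n02.Gm8773/Tac1 (0.52), as in 4.42% and 15% of all genes tested there. Kcnq3 ran from -0.15 in Glu5 to 0.79 ± 0.34 in n06.Oxt neurons, with values of -0.08 in n16.Rgs16/Vip, -0.06 in n29.Nr5a1/Adcyap1 and 0.07 in Glu4, and its arms did not overlap in n06.Oxt, n02.Gm8773/Tac1 (0.70) and Glu6 (0.47), where 8.91%, 15% and 10.3% of genes lay higher in every FGF1 mouse.

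Adam12 in the other neurons was measured with few UMIs, and its ratios are given as a description, with intervals that cover counting error and not the spread over mice. The log2 fold change was 0.55 in n29.Nr5a1/Adcyap1 neurons, 0.56 in unmap and 0.99 ± 0.56 in Glu6. In n23.Sst/Unc13c neurons 22 UMIs in FGF1 mice stood against 3 in vehicle mice (ratio 4.44, 95% counting interval 1.34 to 23.2), and in Glu5 neurons 22 stood against 1 (6.49, 1.05 to 268). In n02.Gm8773/Tac1 neurons 9 UMIs stood against 0, at least 2.80-fold higher against a floor of 3 counts over the vehicle group. In Glu4 neurons 7 UMIs stood against 2 (ratio 0.70, 0.13 to 6.95), and in n16.Rgs16/Vip neurons the means were 41.1 and 38.6 CPM from 22 and 25 UMIs. For n10.Ghrh neurons 6 UMIs stood against 2 (0.59, 0.11 to 5.99), and the vehicle side was 1 mouse (mouse 3, 10 nuclei). The Agrp value of Adam12 in FGF1 mice, 145 to 356 CPM, was above the 33.7 to 52.7 CPM of unmap neurons of the same mice, but overlapped with the values of GABA15 neurons given above and with the 117 to 286 CPM of Glu6 neurons.

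**Figure D2:**
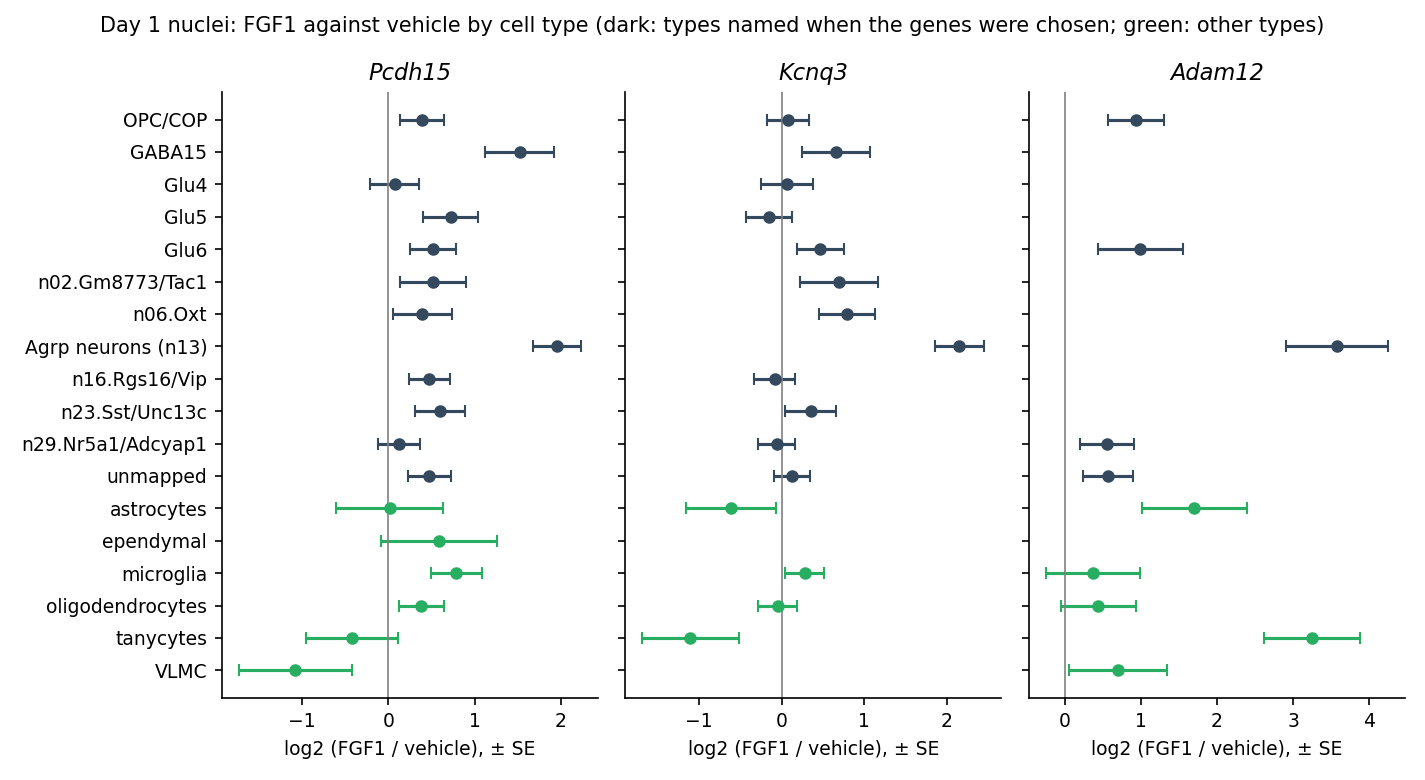
Log2 fold change of each gene, FGF1 against vehicle on Day 1, on the horizontal axis for each nuclear cell type with an edgeR estimate; points are estimates, bars plus and minus 1 SE, and dark marks are the types named when the genes were chosen, green marks the others. Agrp neurons have the highest estimate for Pcdh15 (1.95) and Kcnq3 (2.16), and for Adam12 Agrp neurons (3.58) and tanycytes (3.25) have the highest among the types shown. Types with too few Adam12 counts for an estimate are not shown for this gene. GABA15 neurons and ependymal cells are among them, and their arms did not overlap either.

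Nuclei labelled COP, which stands for committed oligodendrocyte precursors and here also covers OPC, showed smaller differences whose sign turned between the days for Pcdh15 and Adam12. The 8 OPC markers summed to 1495 to 1938 CPM in FGF1 and 1254 to 1840 CPM in vehicle mice on Day 1, but 5 general neuronal markers summed to 10426 to 11589 and 10853 to 13541 CPM, against 15801 to 17999 and 15758 to 19905 CPM in n29.Nr5a1/Adcyap1 neurons. Neuronal RNA was thus counted under this label, and its part in the values was not tested.

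Pcdh15 in COP nuclei was at 2074, 3144 and 2745 CPM in FGF1 and at 2267, 1599 and 2291 CPM in vehicle mice on Day 1, with overlap (log2 fold change 0.39 ± 0.25). On Day 5 it was at 2135 and 1465 CPM in FGF1 and at 2792 and 2146 CPM in vehicle mice (-0.46 ± 0.27). Kcnq3 overlapped on both days, with log2 fold changes of 0.08 and 0.18. Adam12 was at 87.6, 138 and 189 CPM in FGF1 and at 68.1, 52.7 and 87.9 CPM in vehicle mice on Day 1 (0.93 ± 0.37), where FGF1 mouse 1 and vehicle mouse 3 were nearly equal. On Day 5 it was at 64.2 and 43.8 CPM in FGF1 and at 105 and 108 CPM in vehicle mice (-1.0 ± 0.40), so the FGF1 mice were then the lower ones, as they were for 19.4% of the genes tested in these nuclei. In the same Day 5 nuclei the OPC markers summed to 1032 to 1386 CPM in FGF1 and 1781 to 1858 CPM in vehicle mice, and the oligodendrocyte markers to 1713 to 2671 and 204 to 665 CPM. The part of that shift in the Day 5 values was not tested.

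Cell types that had no role in choosing the genes were tested. On Day 1, 15 pairs of a gene and a type could be tested in tanycytes, ependymal cells, astrocytes, microglia, oligodendrocytes and VLMC, 1 was called, and 3 had an unadjusted p under 0.05 by edgeR. Over all genes of these types 3.14% of pairs were called. DESeq2 also called 1 of the 15. These are the same mice in which the genes were chosen.

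The called pair was Adam12 in tanycytes, the glia-like cells that line the floor of the third ventricle. Adam12 rose from 6.72, 14.3 and 70.1 CPM in vehicle mice 1, 2 and 3 to 168, 180 and 353 CPM in FGF1 mice 1, 2 and 3. The arms did not overlap, and 122 and 8 UMIs stood behind them, from 119, 43 and 25 FGF1 and 32, 35 and 20 vehicle nuclei. The difference was 9.5-fold (log2 fold change 3.25 ± 0.63, 95% interval 2.00 to 4.49, edgeR FDR 0.00688). In tanycytes 190 of 3534 genes, 5.38%, were called higher, and in 461 of them, 13%, every FGF1 mouse lay above every vehicle mouse. Within the batches the ratio was 2.40, 26.7 and 24.7. Without vehicle mouse 1 the call was lost (log2 fold change 2.66, edgeR FDR 0.0858), and the log2 fold change lay between 2.66 and 4.34 as each mouse was left out.

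Marker genes moved in these tanycytes too. The tanycyte list summed to 1895 to 3093 CPM in FGF1 and 1290 to 1911 CPM in vehicle mice, and the ependymal list to 63.0 to 103 and 336 to 599 CPM. The oligodendrocyte list was also lower without overlap, at 271 to 339 and 561 to 719 CPM, as was the list of GABA neurons, at 37.8 to 65.2 and 85.6 to 114 CPM. The fall of the oligodendrocyte list was not particular to tanycytes. Its arms were also apart in ependymal (135 to 367 and 489 to 775 CPM), COP, oligodendrocyte, n29.Nr5a1/Adcyap1 and unmap nuclei. They overlapped in astrocytes, microglia and GABA15. The 5 VLMC markers were at 0 to 340 CPM in FGF1 and 0 to 20 CPM in vehicle mice, and 340 CPM was FGF1 mouse 3, which also had the most Adam12. Without that mouse the log2 fold change was 2.90. The part of the other lists was not tested. After thinning, 18.5% of tanycyte nuclei of FGF1 mice (13.4 to 28.0% per mouse) and 5.00% of those of vehicle mice (0 to 15%) held an Adam12 UMI, so the thinned shares overlapped.

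Genes of the ADAM list moved in the same tanycytes. The list was chosen with earlier results of these data known, so its counts are a description. Of 22, 10 were tested, 4 rose and 1 fell, where 5.38% of all genes tested rose and 3.76% fell. Timp1 rose by 6.56 on the log2 scale (edgeR FDR 0.000541), Hbegf, an epidermal growth factor family ligand that Adam12 can shed, rose by 5.32 (edgeR FDR 0.00166), and Sdc4, a heparan sulfate proteoglycan, rose by 2.30 (edgeR FDR 0.00344). Timp3, an inhibitor bound to the matrix, rose by 1.38 (edgeR FDR 0.0266). Adam23 fell by 2.18 (edgeR FDR 0.00652). Hbegf also rose in astrocytes (log2 fold change 4.0, edgeR FDR 0.0108) and in ependymal cells (5.53), and Timp1 in astrocytes (7.76, edgeR FDR 0.00285), where 1.39% of genes in astrocytes and 10.2% in ependymal cells were called higher. Sdc4 also rose in ependymal cells (1.26), and Timp1 (7.60), Igfbp5 (4.86) and Sdc4 (3.09) rose in VLMC, so such rises were not particular to tanycytes.

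Adam12 in ependymal cells was at 107, 61.2 and 161 CPM in FGF1 and at 0, 16.5 and 28.6 CPM in vehicle mice. The arms did not overlap, as for 18.8% of the genes tested in these cells, and with 21 and 3 UMIs the gene did not reach the count filter. The ratio of the pooled levels was 6.76, with a 95% counting interval of 2.02 to 35.4. In astrocytes Adam12 was at 24.3, 60.1 and 109 CPM in FGF1 and at 13.7, 8.29 and 43.2 CPM in vehicle mice, with overlap, and did not pass the test (log2 fold change 1.70 ± 0.69, edgeR FDR 0.421, unadjusted p 0.0312). In microglia and oligodendrocytes its log2 fold change was 0.37 and 0.44, and in VLMC, where it was at 70.7 and 637 CPM in FGF1 and at 99.3, 438 and 263 CPM in vehicle mice, it was 0.70 ± 0.64 (edgeR FDR 0.669).

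**Figure D3:**
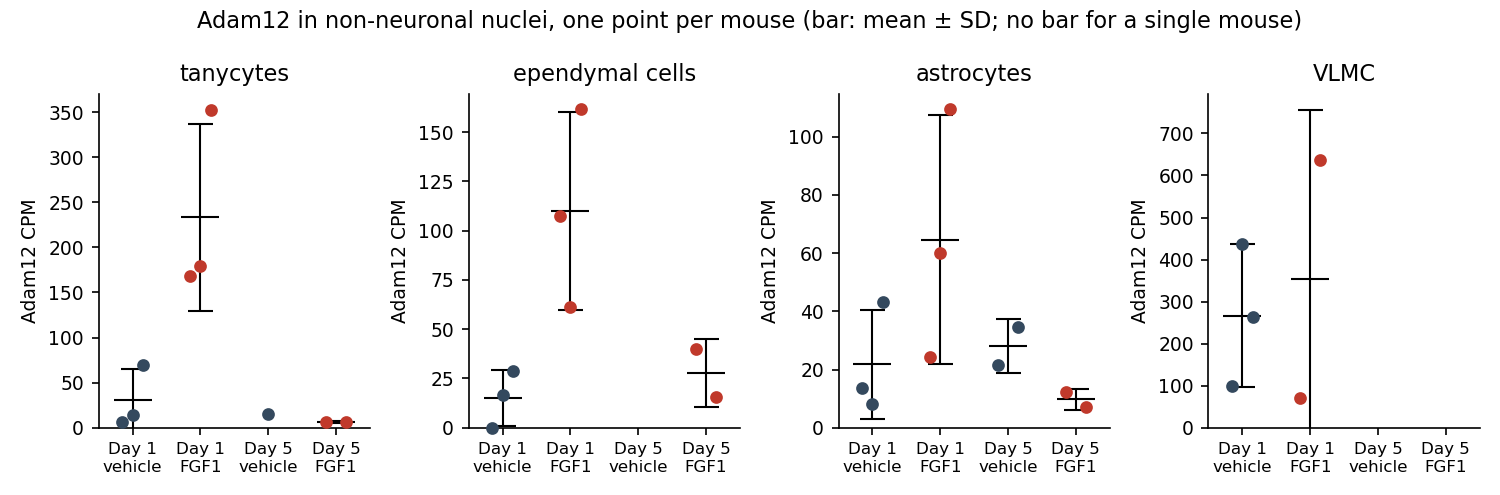
Adam12 level in CPM on the vertical axis in tanycytes, ependymal cells, astrocytes and VLMC, by treatment and day; each point is 1 mouse and the bars give the mean and SD where there are at least 2. On Day 1 tanycytes of FGF1 mice lie between 168 and 353 CPM and those of vehicle mice at or under 70.1 CPM, and on Day 5 all tanycyte values lie at or under 15 CPM.

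Pcdh15 and Kcnq3 did not pass the test in tanycytes. Pcdh15 had a log2 fold change of -0.42 ± 0.54 (95% interval -1.47 to 0.63, edgeR FDR 0.686) and Kcnq3 of -1.11 ± 0.58 (-2.25 to 0.04, edgeR FDR 0.275). The thinned share of tanycyte nuclei with a Kcnq3 UMI was 2.52 to 14% in FGF1 and 14.3 to 30.0% in vehicle mice, lower in every FGF1 mouse, while the levels in CPM overlapped. It is a description, as the number of all genes that separate by share was not counted. In ependymal cells Pcdh15 had 0.59 ± 0.67 (-0.72 to 1.90, edgeR FDR 0.616). In astrocytes Pcdh15 had 0.02 ± 0.62 and Kcnq3 -0.61 ± 0.55, and in VLMC Pcdh15 had -1.08 ± 0.65 (edgeR FDR 0.435). The intervals are wide, and changes within their bounds were not detectable with these mice.

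In microglia Pcdh15 was at 1428, 2594 and 2456 CPM in FGF1 and at 1625, 1159 and 906 CPM in vehicle mice (log2 fold change 0.79 ± 0.30, edgeR FDR 0.914, unadjusted p 0.0187), with overlap. In oligodendrocytes it had 0.38 ± 0.26 and Kcnq3 -0.05. Under both labels the neuronal markers were high, at 12750 to 15018 and 13113 to 16172 CPM in microglia and at 13228 to 13849 and 11679 to 16064 CPM in oligodendrocytes of FGF1 and vehicle mice, so these values also include RNA of neurons. In astrocytes and tanycytes the neuronal markers summed to 1720 to 7434 CPM. In ependymal nuclei they summed to 2763 to 5853 CPM in FGF1 and 2227 to 2635 CPM in vehicle mice, without overlap. Under the Agrp label they summed to 8190 to 11647 and 7827 to 14247 CPM. The part of neuronal RNA in the values of astrocytes, tanycytes and ependymal cells was not tested.

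On Day 5 tanycytes held little Adam12. The gene was at 6.86 and 5.99 CPM in the FGF1 mice and at 15 CPM in the 1 vehicle mouse with enough tanycytes, from 3 UMIs and 1 UMI. Of 8 pairs of a gene and a type tested on Day 5, 0 were called by edgeR and 0 by DESeq2, which gave 6 of them an adjusted p, with 2 and 0 at an unadjusted p under 0.05, where 0.316% of all pairs in these types were called. The 2 were Adam12 in astrocytes, at 12.3 and 7.16 CPM in FGF1 and 21.5 and 34.6 CPM in vehicle mice (log2 fold change -1.54 ± 0.61, edgeR FDR 0.264), and Pcdh15 in oligodendrocytes (0.38 ± 0.16, edgeR FDR 0.641). The difference between the Day 1 and Day 5 effects was tested in one model in astrocytes, oligodendrocytes and microglia, and was not called there for any of the genes. It was 3.24 ± 1.03 for Adam12 in astrocytes (edgeR FDR 0.442), on the log2 scale, Day 1 minus Day 5. In tanycytes, with 1 vehicle mouse on Day 5, no difference between the days is read.

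The Day 5 whole cells came from a separate cohort without neurons, and give the OPC and the other glia. OPC-like cells were found in clusters 5, 17 and 18, of which cluster 5 held 3814 cells and all 8 OPC markers, which summed to 6132 to 7080 CPM in FGF1 and 5795 to 7061 CPM in vehicle mice. Pcdh15 is itself among the 10 leading genes of clusters 5 and 18.

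In cluster 5, Pcdh15 had a lowest, median and highest value of 442, 488 and 576 CPM in the 6 FGF1 mice and of 426, 451 and 589 CPM in the 6 vehicle mice. The ranges nearly coincided, and the log2 fold change was 0.03 ± 0.11 from 908 and 1589 UMIs. Kcnq3 was at 23.7, 34.0 and 49.6 CPM in FGF1 and at 22.9, 45.1 and 81.8 CPM in vehicle mice (-0.43 ± 0.24). Adam12 was at 7.85, 36.1 and 47.0 CPM in FGF1 and at 19.1, 24.8 and 38.0 CPM in vehicle mice (0.16 ± 0.28). All 3 genes overlapped between the arms.

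Cluster 17 held 115 OPC-like cells whose leading genes were those of dividing cells (Ube2c, Top2a, Mki67). It had at least 10 cells in 5 FGF1 mice and in 0 vehicle mice, so no comparison was possible. In those 5 mice Pcdh15 ranged from 228 to 423 CPM, Kcnq3 from 0 to 73.6 CPM and Adam12 from 32.6 to 110 CPM. Cluster 18, with 108 cells, also carried 5 of the 7 oligodendrocyte markers and had enough cells in 4 vehicle mice and 1 FGF1 mouse, with Pcdh15 at 287, 456 and 544 CPM (lowest, median and highest) in the former and at 150 CPM in the latter.

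**Figure D4:**
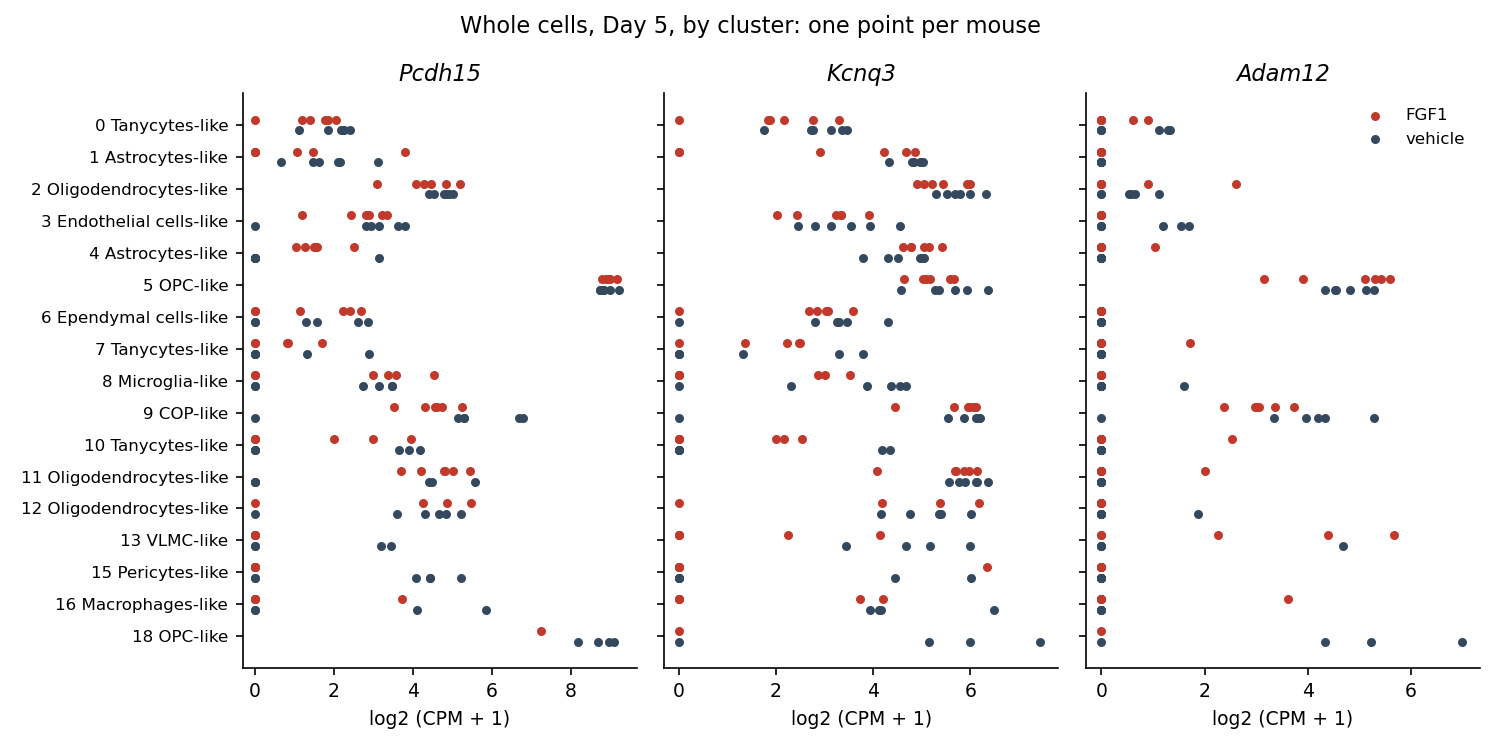
Level of the 3 genes in the whole-cell clusters of Day 5, as log2(CPM + 1) on the horizontal axis, with 1 point per mouse, red for FGF1 and dark for vehicle. Pcdh15 is concentrated in the OPC-like clusters 5 and 18 (476 and 436 CPM on average in vehicle mice) against 53.8 CPM in the COP-like cluster 9, and FGF1 and vehicle points overlap in cluster 5.

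In the other whole-cell clusters 5 pairs of a gene and a cluster could be tested. By edgeR 0 were called and 2 had an unadjusted p under 0.05, and by DESeq2 0 were called, of 3 given an adjusted p, and 2 had an unadjusted p under 0.05, where 0.684% of all pairs in these clusters were called. Kcnq3 had a log2 fold change of -0.58 ± 0.21 in the oligodendrocyte-like cluster 2 (edgeR FDR 0.213) and of -0.69 ± 0.29 in the astrocyte-like cluster 1 (edgeR FDR 0.368). Kcnq3 in the astrocyte-like cluster 4 had 0.15. The arms filled these astrocyte-like clusters unequally, with 40 to 813 cells per FGF1 and 423 to 2083 per vehicle mouse in cluster 1, and 421 to 802 and 43 to 351 in cluster 4. Kcnq3 in the COP-like cluster 9 had 0.03 ± 0.39, and Pcdh15 in cluster 2 had -0.15. In cluster 9, Pcdh15 was at 10.4, 23.0 and 37.0 CPM (lowest, median and highest) in FGF1 and at 0, 38.2 and 110 CPM in vehicle mice, without a test because of low counts. Adam12 had 4 UMIs in FGF1 and 5 in vehicle mice over all tanycyte-like clusters.

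Levels across cell types were ordered by the mean of the vehicle mice. They describe the RNA counted under each label, which under COP, microglia and oligodendrocytes includes RNA of neurons. Neuronal markers were also counted, at lower sums, in astrocytes, tanycytes and ependymal cells. The levels are not compared between genes or between nuclei and cells. Cell types were drawn on the same counts, so the tests between neighbours describe the spread over mice only. In nuclei Pcdh15 was highest in COP (2219 ± 426 CPM, SD), n29.Nr5a1/Adcyap1 (2144 ± 230 CPM) and Glu5 (2101 ± 610 CPM), which did not differ in order beyond their spread. Agrp neurons were 13th of 18 types, at 585 ± 269 CPM over both days, and ependymal cells lowest, at 271 ± 238 CPM. By these vehicle means Pcdh15 was lower in Agrp neurons than in most neuronal types in the order, a level that also entered the choice of the gene.

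Kcnq3 was highest in n29.Nr5a1/Adcyap1 neurons (841 ± 143 CPM), then in Glu4 (564 ± 75 CPM). Agrp neurons were 17th of 18, at 161 ± 83.2 CPM, above ependymal cells at 128 ± 72.4 CPM. Adam12 was highest in VLMC (267 ± 169 CPM), then Glu6 (104 ± 42.1 CPM) and COP (84.3 ± 23.7 CPM). Agrp neurons were 13th, at 15.9 ± 15.1 CPM, and Glu5 lowest, at 6.75 ± 8.74 CPM. All 3 genes were thus in the lower part of the order in Agrp neurons of vehicle mice. Choosing genes by their difference between FGF1 and vehicle in Agrp neurons favours low vehicle levels there, so this place is a description. No neighbour pair that included Agrp neurons passed the test given next.

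The neighbours in these orders were compared over the mice of both arms, and both arms enter the difference by which the genes were chosen. Between neurons and COP nuclei these comparisons are thus not independent of the choice. Of 51 pairs, 2 differed after adjustment over all pairs by an exact sign-flip permutation test over mice (two-sided). Pcdh15 was higher in Glu5 than in unmap neurons, and Adam12 higher in COP than in n16.Rgs16/Vip neurons, each in 10 of 10 mice (exact p 0.00195, the smallest these mice allow, Benjamini-Hochberg adjusted 0.0498). The other pairs did not pass the test. With thinned nuclei 0 pairs passed, with 8 at an unadjusted exact p under 0.05 against 9 unthinned. Thinning changed the order and so the pairs. Glu5 and unmap stayed neighbours for Pcdh15 (exact sign-flip p 0.00977, adjusted 0.199), but COP and n16.Rgs16/Vip were no longer neighbours for Adam12 and were not compared again.

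**Figure D5:**
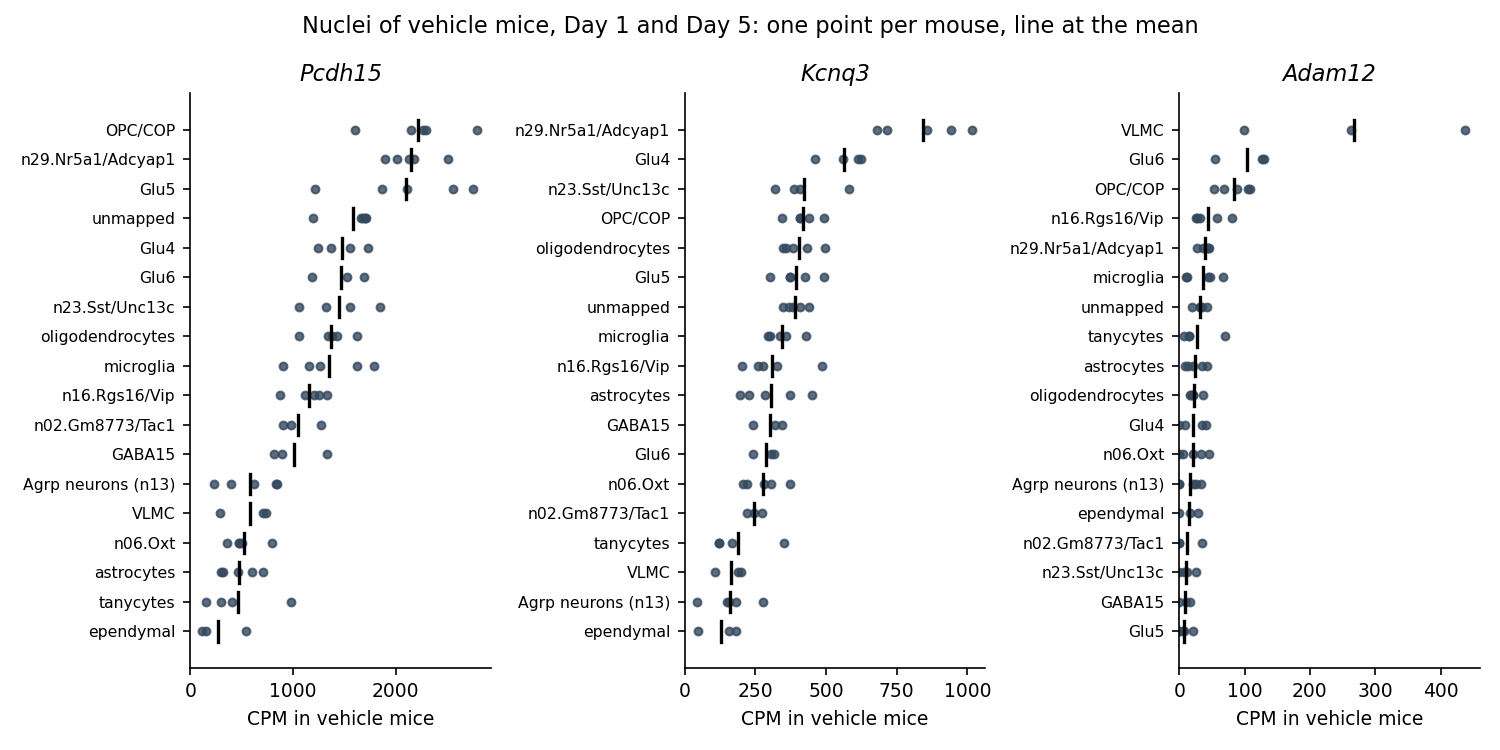
Level of each gene across the 18 nuclear cell types, in CPM on the horizontal axis, in the vehicle mice of both days, with 1 point per mouse and a line at the mean, by which the types are ordered. Agrp neurons are 13th, 17th and 13th in the order of vehicle means for Pcdh15, Kcnq3 and Adam12 (585, 161 and 15.9 CPM).

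In whole cells Pcdh15 was highest in cluster 5 (476 ± 63.2 CPM) and cluster 18 (436 ± 113 CPM), and next in the COP-like cluster 9 (53.8 ± 43.0 CPM). Kcnq3 was spread more evenly over the oligodendrocyte lineage, at 67.3 CPM in cluster 18, 62.9 ± 12.8 CPM in cluster 11 and 54.8 ± 14.4 CPM in cluster 2. Adam12 was at 45.2 ± 55.4 CPM in cluster 18, 27.1 ± 7.47 CPM in cluster 5 and 16.4 CPM in cluster 9. Of 48 pairs of neighbours, 0 differed by the exact sign-flip test after adjustment, with 3 at an unadjusted exact p under 0.05.

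The genes whose levels over cell types were most like those of the 3 genes were ranked by Pearson correlation of log2(CPM + 1) of the vehicle means, as a description over cell types that share libraries. Over 18 nuclear types and 12255 genes, Pcdh15 was most like Opcml (0.991), Tenm2 (0.960), Lhfpl3 (0.933), Ryr3 (0.928) and Grm5 (0.925). Kcnq3 was most like Glra1 (0.907), Adam19 (0.906), Hs3st4 (0.880), Rbfox1 (0.879) and Cntn3 (0.878), and Adam12 like Ntn1 (0.837), Nr4a2 (0.823), Frk (0.812), Palmd (0.808) and Gm14061 (0.807). Pcdh15 and Kcnq3 correlated with each other at 0.847, and Adam12 with neither (0.132 and 0.0767).

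Over 17 whole-cell clusters and 11380 genes, Pcdh15 was most like Matn4 (0.973), Snx22 (0.95), Cntn4 (0.941), Sntg1 (0.904) and C1ql3 (0.898). Kcnq3 was most like Omg (0.938), an oligodendrocyte myelin glycoprotein, then Fmnl2 (0.876), Cmtm5 (0.874), Smim13 (0.869) and Acap2 (0.859). Adam12 was most like Susd5 (0.956), Gng3 (0.951), Adarb2 (0.949), Neu4 (0.944) and Acan (0.935). Here Adam12 and Pcdh15 correlated at 0.880, and Kcnq3 and Pcdh15 at 0.440.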

How the data were processed

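The authors made 10x Genomics 3′ (v2) libraries from hypothalamic nuclei and cells, counted UMIs with Cell Ranger 1.2 on GRCm38, with introns for nuclei, and deposited raw counts per gene and barcode with cell labels and clusters; the deposited metadata also hold percent mitochondrial and ribosomal UMIs. Cell doublets had been removed with Scrublet by the authors; nuclei had no doublet caller. Whole-cell clusters were named from fixed marker lists. Counts were summed per mouse and type (at least 10 barcodes). FGF1 was compared with vehicle within a day by edgeR 4.0.16 quasi-likelihood tests (TMM scaling, filterByExpr, FDR under 0.05, 2 or more mice per arm) in R 4.3.3, with DESeq2 1.42.0, other scaling, no filter, blocks, thinning and left-out mice as alternatives, and scripts were tested on simulated data. p-values are adjusted over all genes of a type. The 3 genes and the lists were chosen with earlier results of these data known. Named genes were the 3, list genes called or with an unadjusted p under 0.05 and relatives of the 3, the 5 smallest p each way in Agrp neurons, and the 5 most alike per gene. Counts allow precision by counting error only. Intervals of ratios of pooled levels are exact and cover counting error, and those of fold changes are normal intervals from the fitted SE over mice. The 660 nuclei set aside by the annotation entered no comparison.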

Additional observations from a re-analysis of the deposited data

Results flagged for a closer look

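Of 16 groups of 6 whole-cell mice examined for a mouse far from the others, 2 held one, where chance gives about 1 in 20. Both were vehicle mouse 27 and Kcnq3, at 19.2 CPM in the astrocyte-like cluster 1, where the other vehicle mice were higher, and at 0 in the COP-like cluster 9. That 0 came from 18 cells, where the other vehicle mice had 2 to 5 UMIs, too few to tell it from counting error. In the nuclei that the annotation set aside, which entered no comparison, both Day 5 FGF1 mice were above both vehicle mice for Pcdh15 and Kcnq3. The lower FGF1 mouse had 1640 CPM of Pcdh15 against 1412 CPM in the higher vehicle mouse, and 554 CPM of Kcnq3 against 437 CPM, from 10 to 210 nuclei per mouse, and 20.2% of the 11029 genes with at least 10 UMIs in these nuclei separated in this way. Adam12 overlapped, at 31.1 and 13.5 CPM in FGF1 and 38.7 and 19.9 CPM in vehicle mice. On Day 1 the arms of these nuclei overlapped for all 3 genes, Pcdh15 being at 908, 2108 and 1584 CPM in FGF1 and at 1974, 682 and 1871 CPM in vehicle mice.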

How the results depend on the processing

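The called pair of Day 1 nuclei, Adam12 in tanycytes, was 1 of 15. Without a count filter 2 pairs were called (Adam12 in ependymal cells added), after thinning 0 (6 pairs testable, without Adam12 in tanycytes), and 0 to 2 as each mouse was left out (0 without vehicle mouse 1, 2 without vehicle mouse 3, which added Pcdh15 in ependymal cells). Of the Day 5 whole-cell pairs 1 was called with at least 20 cells per mouse (Pcdh15, cluster 9) and 0 to 1 with a mouse left out (1 without vehicle mouse 29). List genes called in Agrp neurons were 1 as reported, 2 without a filter (Kcnq5 and Timp1), 0 with the replicate block, and 0 to 1 with a mouse left out. The replicate numbers did not pair the mice: same-numbered Day 1 mice correlated at -0.219 to 0.132 in Agrp neurons and others at -0.274 to 0.398. Neighbour pairs called in nuclei were 2, and 0 with thinning, which changed the order and so the pairs tested. Without thinning the differences in share of Agrp nuclei were 19.0 for Pcdh15, 32.9 for Kcnq3 and 24.7 percentage points for Adam12, against 35.7, 30.0 and 18.3 thinned. Signs turned only for small log2 fold changes or few mice, and the cause was not tested. Among the tested types of Day 1 these were Pcdh15 in astrocytes (-0.0587 with the batch block, -0.10 with the replicate block, -0.27 thinned) and Adam12 in VLMC (-0.23 with the batch block). Types named when the genes were chosen are not listed in full. Among them, Kcnq3 on Day 1 changed sign over the alternatives in COP (-0.11 to 0.25), Glu4 (-0.31 to 0.19) and Glu5 (-0.35 to 0.030). With each mouse left out in turn, Pcdh15 in astrocytes ranged from -0.34 to 0.38, Adam12 in microglia from -0.0334 to 0.84, Kcnq3 in oligodendrocytes from -0.17 to 0.0540, Pcdh15 in tanycytes from -0.91 to 0.34 and Adam12 in VLMC from -1.82 to 1.45. On Day 5 Kcnq3 in cluster 9 turned to -0.0301 with DESeq2, -0.0250 with RLE scaling and -0.0105 with at least 20 cells per mouse, and ranged from -0.0252 to 0.23 with a mouse left out. In Day 5 nuclei the ranges were -0.12 to 0.67 for Kcnq3 in astrocytes, -0.31 to 0.44 for Pcdh15 in astrocytes and -0.12 to 0.33 for Kcnq3 in oligodendrocytes. In Agrp neurons on Day 1 the log2 fold change ranged over all alternatives from 1.80 to 2.12 for Pcdh15, 2.05 to 2.25 for Kcnq3 and 2.87 to 4.83 for Adam12. On Day 5 it ranged from 0.49 to 1.68 for Pcdh15 and from -0.81 to 2.02 for Kcnq3 (2.02 without vehicle mouse 28). Adam12 in Agrp neurons of Day 1 vehicle mice rested on 5 UMIs, so its fold change is imprecise. The median depth of these nuclei was 2585 to 3775 UMIs, against 1761 to 2593 UMIs in FGF1 mice, and the part of depth was not tested.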
